A study of Mus musculus with 24 samples.

Results

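Marker genes of the vessel wall were followed in mouse brains with deletions of Atm and Aptx, which encode proteins of DNA repair. They were 10 genes chosen by name, with earlier results of these data known. Counts among them beside the share of all genes are therefore a description. Each gene had 1 row in the cerebellum table and 1 in the cortex table, among 22562 genes in each. Acta2, Tagln and Myh11 mark contractile mural cells, Pdgfrb and Rgs5 mark pericytes, and Cldn5, Pecam1, Flt1, Kdr and Slc2a1 mark endothelial cells. All 10 passed the filter on low values in both tissues, Myh11 in cerebellum only through mutant libraries. Total RNA had been sequenced from whole cerebellum of 6 double mutants (Atm Nes-cre with Aptx-/-), 2 Aptx mutants (Aptx-/-), 2 Atm mutants (Atm Nes-cre) and 4 controls, and from whole cortex of 6 double mutants and 4 controls, in mice of 10 to 12 months by the sample overview of the study. The labels name the last group only as control. Nes-cre is a Cre driven by Nestin, which the study used to limit the loss of Atm to the nervous system, whereas Aptx was deleted in all cells. Whether cells of the vessel wall keep Atm was not tested. The genotype label of the single Atm mutants is Atm Nes-cre, while the study's text on this experiment writes Atm-/- for them.

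Brain capillaries are tubes of endothelial cells sealed by tight junctions and wrapped by pericytes, and larger vessels add a coat of contractile smooth muscle cells that sets their calibre. Endothelial cells release platelet-derived growth factor B, which recruits mural cells through its receptor on pericytes, and they sense vascular endothelial growth factor through the receptors encoded by Flt1 and Kdr. Contractile genes of smooth muscle are switched on by serum response factor with its myocardin-family partners, which bind an element called the CArG box. In bulk tissue a lower or higher value cannot tell a change in the number of cells of a type from a change in RNA per cell.

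Acta2 carried the largest difference of the 10 genes, and its promoter is shown because it holds 2 elements of the CArG kind. The stretch covers the 110 bases before the start site of the gene in RefSeq (GRCm38.p6, chr19:34255374-34255483, minus strand), written 5′ to 3′, and the capitals mark the 2 matches.
Acta2: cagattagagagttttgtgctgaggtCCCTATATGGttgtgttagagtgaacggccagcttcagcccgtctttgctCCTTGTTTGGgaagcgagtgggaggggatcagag
The matches begin at positions -84 and -34 relative to the start site. A match was CC, then 6 bases with at most 1 G or C among them, then GG, a definition that reads the same on both strands and was set after the sequence had been seen. Such a match occurred in 9.98% of the 32851 RefSeq promoter windows of 300 bases, and 2 or more in 0.822%. With only A or T allowed inside, the Acta2 window had no match, against 1.63% of all windows. Of the 10 genes, 6 had a window in the table (Acta2, Rgs5, Cldn5, Flt1, Kdr and Slc2a1), and besides Acta2 only Kdr held the looser match, 1 time, at position -236. A match is a run of letters and does not show binding.

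The genes lie on separate loci of the mm9 build, with Acta2 on the minus strand of chromosome 19 (34315580-34329826) and Pecam1 on the minus strand of chromosome 11 (106515531-106611942), and with Rgs5 and Pdgfrb on the plus strands of chromosomes 1 (171585632-171625944) and 18 (61204804-61244715). Cldn5 and Myh11 are both on chromosome 16, at 18776940-18778353 on the plus strand and 14194620-14291501 on the minus strand, and Flt1 and Kdr are both on the minus strand of chromosome 5, at 148373180-148537587 and 76328852-76374483. Tagln (chromosome 9, 45737711-45744141, minus) overlaps the oppositely oriented Pcsk7 by 65 bases, a U3 small nucleolar RNA lies opposite Pecam1 over 193 bases, and Slc2a1 (chromosome 4, 118781316-118809935, plus) overlaps the opposite transcripts Gm12867 and Gm12868 and, on its own strand, Mir1957 by 66 bases. The library kit keeps strand, but the strand setting of the counting was not given in the sources used here, so the share of reads from these partners was not tested. Actin genes have nearly identical coding sequences, which leaves the split of reads between Acta2 and its relatives uncertain.

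FPKM values (fragments per kilobase of transcript, scaled to the reads mapped) gave library sums of 229937 (lowest) and 247730 (highest) in the 14 cerebella, and of 239529 and 554380 in the 10 cortices, the top sum being that of cortex control 4, where Gm10654 alone was listed at 322070. Gm10654 was high in every cortex control (lowest 2951, median 5755 FPKM), against at most 1.83 FPKM in cortex double mutants and 1.44 in cerebellar controls. The cause was not tested. The files hold no counts, so depth was unknown. Controls and double mutant 6 carried values of more than 10 digits in at least 98.5% of entries, against at most 0.0448% in the other libraries, so these columns had been written in another way, and whether they were also computed differently was not given in the sources used here. The mutant libraries carry G1 (cerebellum) or G2 (cortex) in their names and the controls C1, and genotype and this code cannot be told apart in any comparison with controls. Ddx3y, a Y-linked gene, was at most 0.0532 FPKM in the controls of both tissues, between 19.9 and 28.9 FPKM in double mutants 2, 3 and 5, and at 2.30 and 8.24 FPKM in cerebellum and cortex of double mutant 6. It was near 0 (at most 0.103 FPKM) in double mutants 1 and 4, in both Atm mutants and in Aptx mutant 2, while Aptx mutant 1 was at 26.5 FPKM, so by this gene the controls look female and the double and Aptx mutants are of both sexes. Aptx averaged 2.40 ± 0.299 FPKM in cerebellar double mutants and 2.51 ± 0.368 in Aptx mutants, against 3.27 ± 0.216 in controls (SD, n = 6, 2 and 4). Atm was not lower in either genotype that carries its deletion (8.17 ± 0.533 and 7.84 ± 0.541 against 6.95 ± 0.172 in controls), and a gene-wide sum does not check the loss of the exons removed by Cre. By limma Atm was called higher than in controls in double mutants (log2 difference 0.20, adjusted p = 0.0128). It was also called higher in Aptx mutants, at 8.90 ± 0.298 FPKM (0.32, adjusted p = 0.0129), and not in Atm mutants (0.15, adjusted p = 0.211). The labels name samples and not animals, so p-values measure the spread between these samples.

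In the cerebellum of double mutants all 3 contractile mural genes rose, 1 of 2 pericyte genes rose, and 2 of 5 endothelial genes rose, while none of the 10 fell. Myh11, 1 of the 3, entered the test only through mutant libraries and adds no support to that count. Acta2, the actin of smooth muscle, changed most, followed by Myh11 and Tagln. Of all genes tested in this comparison 22.3% were called higher and 10.1% lower at an adjusted p below 0.05 (limma, two-sided). Among called genes 68.9% were higher, and 47.9% were after each library had been rescaled to a common median.

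Acta2 ran from 5.16 FPKM (lowest) over 6.73 (median) to 7.87 (highest) in the 6 double mutants, against 1.97, 1.83, 1.79 and 1.497 in the controls. Every double mutant stood above every control, and the lowest double mutant was number 6, the one written like the controls. The ratio of the means was 3.82, and the difference on the log2(FPKM + 1) scale, which understates the change of low genes, was 1.48 (SE 0.0982, adjusted p = 1.8e-07). Over all alternatives tried it stayed past the threshold.

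Tagln encodes transgelin, an actin-binding protein of smooth muscle. It ran from 4.13 over 4.40 to 4.92 FPKM in double mutants, against 3.42, 2.16, 2.72 and 1.38 in controls. The groups did not overlap, although the controls spread more widely (coefficient of variation 35.7%) than the double mutants (7.07%). The log2 difference was 0.71 (SE 0.128, adjusted p = 0.00101).

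Myh11, the heavy chain of smooth muscle myosin, ran from 0.705 over 1.68 to 2.14 FPKM in double mutants, against 0.553, 0.730, 0.519 and 0.340 in controls. A single library, double mutant 4, lay within the range of the controls, and the other 5 stood above all of them. The log2 difference was 0.74 (SE 0.138, adjusted p = 0.00124). No control reached the 1 FPKM of the filter, against 9 of the 10 mutant libraries, so the gene entered the test through the group where it was high, and its call adds no support to the count of contractile genes. With every gene kept the adjusted p was 0.002999. These values are near or below 1 FPKM, so the ratio of the means of 2.98 is larger than that difference conveys.

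Rgs5, a regulator of G protein signalling found in pericytes, ran from 28.9 over 33.6 to 37.4 FPKM in double mutants, against 28.5, 23.5, 26.0 and 27.7 in controls. It was the most abundant of the 10 genes in every group, and its groups were separated by a narrow gap. The log2 difference was 0.32 (SE 0.0721, adjusted p = 0.00438). Pdgfrb, the receptor for platelet-derived growth factor B, averaged 2.62 ± 0.469 FPKM in double mutants and 2.34 ± 0.315 in controls (log2 difference 0.11, SE 0.11, adjusted p = 0.466).

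Pecam1, an adhesion molecule of endothelial junctions, ran from 4.93 over 5.02 to 5.53 FPKM in double mutants, against 4.40, 3.90, 3.12 and 3.85 in controls. The groups did not overlap, and the log2 difference was 0.34 (SE 0.0733, adjusted p = 0.00304). With Acta2, Tagln and Rgs5 this made 4 of 10 genes with every double mutant above every control, against 15.5% of all genes tested. Kdr, which encodes vascular endothelial growth factor receptor 2, ran from 1.03 over 1.53 to 2.08 FPKM in double mutants, against 1.21, 0.740, 0.710 and 1.17 in controls. The groups overlapped, and the log2 difference was 0.34 (SE 0.125). Its adjusted p of 0.0476 was just inside the threshold, and the call was lost when genes with low values were kept (adjusted p = 0.0697), after median rescaling (adjusted p = 0.0748), with only the groups compared (adjusted p = 0.0603), with Ddx3y as a covariate (adjusted p = 0.288), and when double mutant 1, 3, 5 or 6, Atm mutant 1 or 2, or control 2 or 3 was left out (adjusted p from 0.057 to 0.144).

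The other endothelial genes gave no call in the cerebellum. Cldn5, the main tight-junction claudin of brain endothelium, averaged 9.36 ± 2.05 FPKM in double mutants and 10.1 ± 2.35 in controls (log2 difference -0.10, SE 0.166, adjusted p = 0.666). Flt1, which encodes vascular endothelial growth factor receptor 1, averaged 5.16 ± 0.362 and 5.46 ± 0.425 FPKM in double mutants and controls (-0.07, SE 0.0687, adjusted p = 0.488). Slc2a1, the glucose transporter of the blood-brain barrier, averaged 15.3 ± 2.28 and 15.6 ± 3.76 FPKM in double mutants and controls (-0.01, SE 0.139, adjusted p = 0.948). The standard errors of Cldn5 and Slc2a1 were about as large as that of Tagln, whereas that of Flt1 was the smallest of the 10.

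**Figure D1:**
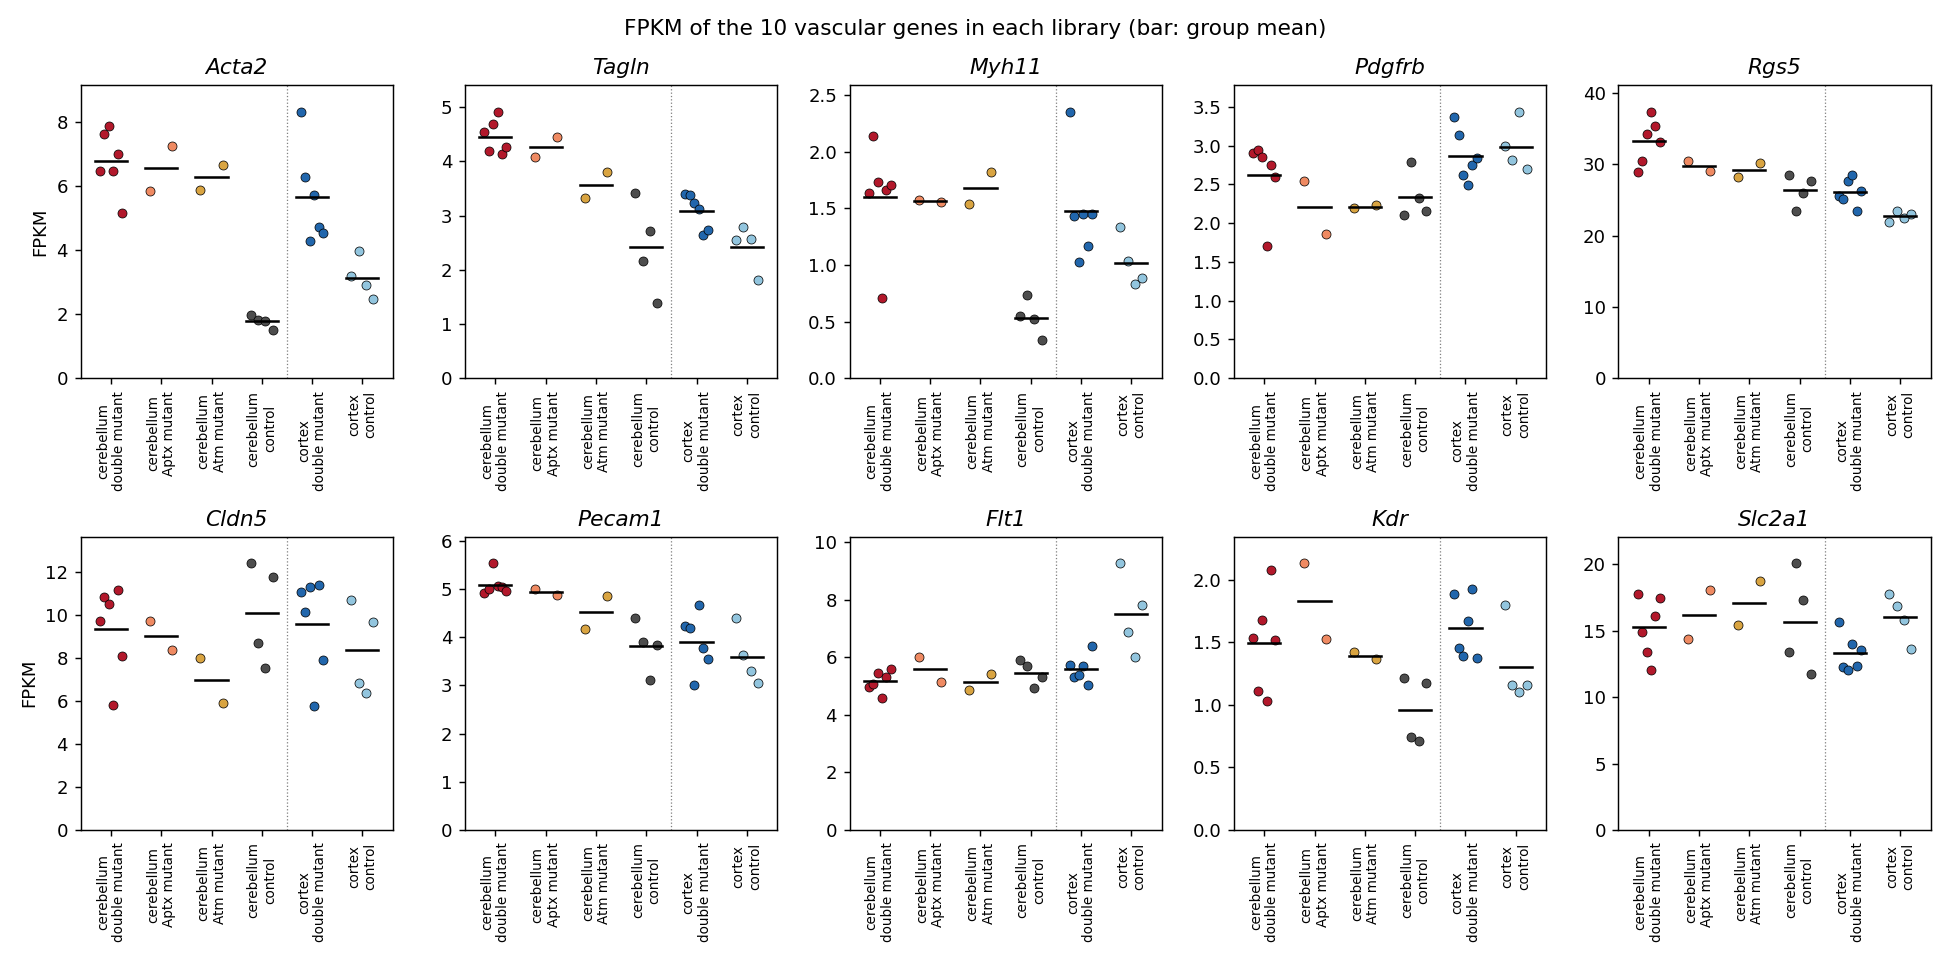
FPKM (y axes, from 0) of each of the 10 genes in every library, by group from cerebellar double mutants to cortex controls, with a point per library and a bar at the group mean. All 10 mutant cerebellum libraries lie above the 4 controls for Acta2, whose controls sit between 1.497 and 1.97 FPKM. For Cldn5 and Slc2a1 the ranges of cerebellar mutants and controls overlap.

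The order of the genes by level showed where the contractile genes moved. In cerebellum of double mutants the means ran from Rgs5 (33.2 FPKM) over Slc2a1 (15.3), Cldn5 (9.36), Acta2 (6.76), Flt1 (5.16), Pecam1 (5.09), Tagln (4.46), Pdgfrb (2.62) and Myh11 (1.60) to Kdr (1.49), and Flt1 and Pecam1, as well as Myh11 and Kdr, were closer than their SDs. In controls they ran from Rgs5 (26.4 FPKM) over Slc2a1 (15.6), Cldn5 (10.1), Flt1 (5.46), Pecam1 (3.82), Tagln (2.42), Pdgfrb (2.34), Acta2 (1.77) and Kdr (0.958) to Myh11 (0.536), and Tagln and Pdgfrb were closer than their SDs. The log2 level of Acta2 minus that of Pecam1, on the log2(FPKM + 1) scale within each library, averaged 0.34 ± 0.164 in double mutants (lowest 0.0487) and -0.79 ± 0.168 in controls (highest -0.564), a description given with no test.

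The single mutants were set against the same controls. In cerebellum Acta2 read 5.85 and 7.24 FPKM in the Aptx mutants and 5.87 and 6.65 in the Atm mutants, so all 4 libraries lay within the span of the double mutants and far above the highest control (1.97). Against controls the log2 difference was 1.44 (SE 0.132, adjusted p = 1.39e-05) in Aptx mutants and 1.39 (SE 0.132, adjusted p = 1.98e-05) in Atm mutants. The 3 mutant groups of the cerebellum share these control libraries.

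In Aptx mutants 5 of the 10 genes were called higher, against 10.4% of all genes higher and 5.16% lower (66.9% of called genes higher, and 43.9% after median rescaling). Besides Acta2 they were Tagln at 4.08 and 4.46 FPKM (0.66, adjusted p = 0.0202), Myh11 at 1.58 and 1.55 FPKM (0.75, adjusted p = 0.016), Pecam1 at 5.003 and 4.88 FPKM (0.31, adjusted p = 0.0458) and Kdr at 2.13 and 1.53 FPKM (0.53, adjusted p = 0.0442). Since Myh11 passed the filter only through mutant libraries, its call adds no support to the count. Leaving out either Aptx library left only Acta2 called. The calls of Pecam1 and Kdr were also lost without the filter, after median rescaling (adjusted p = 0.0954 and 0.0601) and with only the groups compared, where that of Tagln was lost too (adjusted p = 0.0986), and Pecam1 lost its call after quantile normalization (adjusted p = 0.0693). Among the libraries outside the Aptx group, leaving out control 2, 3 or 4 or double mutant 1, 2, 3, 5 or 6 ended the call of Pecam1 (adjusted p from 0.0549 to 0.0997), and leaving out control 2 or 3, double mutant 1, 3 or 6 or either Atm mutant ended that of Kdr (adjusted p from 0.0537 to 0.0989).

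In Atm mutants 2 of the 10 genes were called higher, against 6.78% of all genes higher and 3.25% lower (67.6% of called genes higher, and 44.3% after median rescaling). They were Acta2 and Myh11, and Myh11 passed the filter only through mutant libraries, so its call adds no support to the count. Myh11 read 1.54 and 1.82 FPKM (log2 difference 0.81, SE 0.185, adjusted p = 0.0153), and without Atm mutant 1 or 2 the adjusted p was 0.0702 or 0.126. Tagln read 3.32 and 3.81 FPKM (0.45, adjusted p = 0.105), with the lower of these below the highest control, and without control 1 it passed (adjusted p = 0.0337). Cldn5 read 8.003 and 5.91 FPKM, the lowest group mean of this gene, at a log2 difference of -0.47 (SE 0.222, adjusted p = 0.19).

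Double mutants were also set against the mean of the single mutants, libraries that share the code G1. None of the 10 genes was called (limma, adjusted p below 0.05), against 1.13% of all genes called higher and 0.851% lower, and Rgs5 was the only member with an unadjusted p below 0.05 (0.16, unadjusted p = 0.0391, adjusted p = 0.315). Acta2 differed by 0.06 (SE 0.0982, adjusted p = 0.85) and Myh11 by -0.04 (SE 0.138, adjusted p = 0.95). The test does not show that the genotypes are alike, since these standard errors leave room for differences of the size seen for Rgs5.

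**Figure D2:**
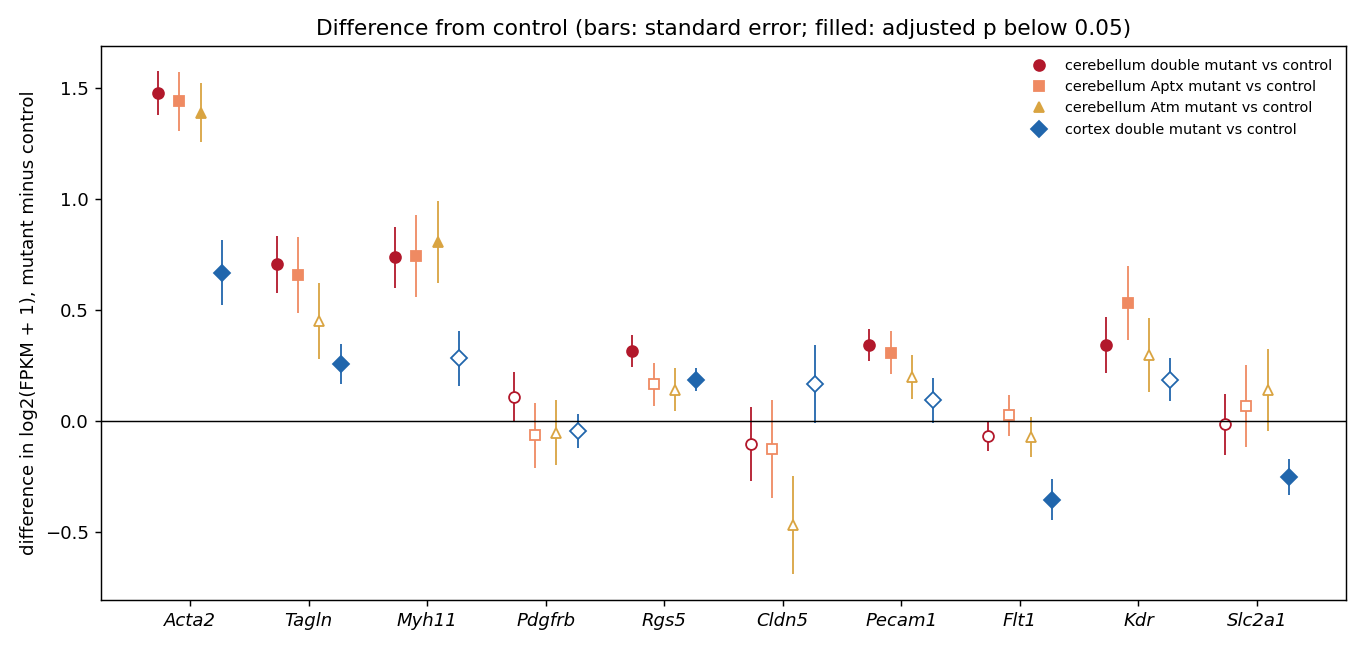
Difference in log2(FPKM + 1) between mutants and controls (y axis, bars are the standard error) for each of the 10 genes (x axis), with double, Aptx and Atm mutant cerebellum and double mutant cortex as separate symbols, filled where the adjusted p was below 0.05. The 3 cerebellar values of Acta2 lie between 1.39 and 1.48, its cortex value is 0.67, and in cortex Flt1 and Slc2a1 are filled below 0.

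In the cortex of double mutants 2 of 3 contractile genes and 1 of 2 pericyte genes rose, and 2 of 5 endothelial genes fell. Acta2, Tagln and Rgs5 were called higher and Flt1 and Slc2a1 lower, against 24.3% of all genes called higher and 14.5% lower. Among called genes 62.6% were higher, and 50.3% were after quantile normalization. Acta2 and Rgs5 had every double mutant above every control, as did 17.7% of all genes tested.

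Acta2 ran from 4.29 over 5.23 to 8.31 FPKM in cortex of double mutants, against 3.18, 3.97, 2.91 and 2.48 in controls. The log2 difference was 0.67 (SE 0.146, adjusted p = 0.00334). Its highest library was double mutant 1, which was also the highest for Tagln (3.40 FPKM), Myh11 (2.35 FPKM), Pdgfrb (3.36 FPKM) and Slc2a1 (15.7 FPKM) among the cortex double mutants. Rgs5 ran from 23.5 over 25.9 to 28.5 FPKM in double mutants, against 21.96, 23.4, 22.5 and 23.1 in controls (0.19, SE 0.0509, adjusted p = 0.0112). The gap between these groups was under 0.1 FPKM, and after quantile normalization the difference was 0.11 (adjusted p = 0.118).

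Tagln ran from 2.64 over 3.18 to 3.40 FPKM in double mutants, against 2.54, 2.78, 2.57 and 1.80 in controls (0.26, SE 0.0894, adjusted p = 0.0356). The groups overlapped at their edge, and the call was lost without double mutant 1, 2, 3 or 4 or without control 1, 3 or 4. The highest adjusted p, 0.112, came at a difference of 0.17 without control 4, the library with the highest Gm10654 value. The call was lost as well without the filter (adjusted p = 0.0677), with the Ddx3y covariate (0.31, adjusted p = 0.0994) and with double mutant 6 and control 4 left out together (adjusted p = 0.0863). Myh11 averaged 1.48 ± 0.463 FPKM in double mutants and 1.02 ± 0.23 in controls (0.28, SE 0.125, adjusted p = 0.0889). It passed with the Ddx3y covariate, at 0.52 (adjusted p = 0.0238), after quantile normalization (0.34, adjusted p = 0.0344) and without double mutant 3 (0.34, adjusted p = 0.0480).

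Flt1 ran from 5.04 over 5.55 to 6.38 FPKM in cortex of double mutants, against 9.26, 6.87, 6.02 and 7.82 in controls. Only double mutant 6 exceeded the lowest control. The log2 difference was -0.35 (SE 0.0915, adjusted p = 0.00874), and with Ddx3y as a covariate it was -0.30 (adjusted p = 0.118). Slc2a1 ran from 12.02 over 12.9 to 15.7 FPKM in double mutants, against 17.8, 16.8, 15.8 and 13.6 in controls (-0.25, SE 0.0803, adjusted p = 0.0257). Its call was lost without the filter (adjusted p = 0.0501), with the Ddx3y covariate (-0.09, adjusted p = 0.513) and when double mutant 3 or 5 or control 1, 2 or 3 was left out (adjusted p from 0.0501 to 0.0869).

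The remaining cortex values gave no call. Pdgfrb averaged 2.87 ± 0.326 FPKM in double mutants and 2.99 ± 0.323 in controls (adjusted p = 0.672). Cldn5 averaged 9.59 ± 2.28 and 8.39 ± 2.11 FPKM in double mutants and controls (adjusted p = 0.47), and Pecam1 3.90 ± 0.588 and 3.59 ± 0.584 (adjusted p = 0.481). Kdr averaged 1.62 ± 0.246 FPKM in double mutants and 1.30 ± 0.329 in controls (adjusted p = 0.144), and without control 1, which read 1.80 FPKM, the adjusted p was 0.0279. The differences of the 2 receptors of vascular endothelial growth factor had opposite signs, of which only that of Flt1 was called. The log2 level of Flt1 minus that of Kdr averaged 1.34 ± 0.196 in cortex double mutants against 1.88 ± 0.12 in controls, and 1.32 ± 0.177 against 1.73 ± 0.178 in cerebellum, again as a description.

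The difference between the tissues was tested on the 20 double-mutant and control libraries. The double-mutant effect on Acta2 was larger in cerebellum than in cortex by 0.81 on the log2 scale (SE 0.19, adjusted p = 0.00384), the only call among the 10 genes, against 15.4% of all genes called higher and 11.7% lower (56.9% of called genes higher, and 43.9% after median rescaling). Myh11 (0.46, SE 0.202, adjusted p = 0.0993) passed without cerebellar double mutant 4 (0.57, adjusted p = 0.0131) or cortex double mutant 1 (0.55, adjusted p = 0.035), Tagln without cerebellar control 1 or 3 or cortex control 4 (adjusted p from 0.00971 to 0.0494), and Flt1 without cerebellar double mutant 4 or cortex control 3 (adjusted p from 0.0181 to 0.0482). Cerebellar and cortex libraries of the same replicate number shared their deviations from the group means, and a fit that paired them called 4 of the 10 genes, against 17.5% of all genes higher and 14.1% lower. Acta2 kept its value in that fit (SE 0.162, adjusted p = 0.0026). Tagln (0.45, SE 0.117, adjusted p = 0.0113) and Flt1 (0.29, SE 0.0956, adjusted p = 0.0344) were higher, and Cldn5 (-0.27, SE 0.0698, adjusted p = 0.0101) was lower.

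Ratios within a replicate number show what this fit compared. The FPKM of Acta2 in cerebellum divided by that in cortex ran from 0.778 to 1.83 in the 6 double mutants and exceeded 1 in 5 of them, against 0.461 to 0.619 in the 4 controls. For Tagln the ratio ran from 1.24 to 1.58 in double mutants and from 0.768 to 1.34 in controls. Acta2 was thus lower in cerebellum than in cortex in every control, which was reversed in most double mutants.

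Cldn5 varied strongly between libraries, yet its ratio of cerebellum to cortex was narrow. It ran from 0.879 to 1.07 in the double mutants and from 1.16 to 1.27 in the controls, without overlap. Over the 6 double mutants cerebellar and cortical Cldn5 correlated with a Pearson r of 0.966 (exact permutation p = 0.0139, adjusted p over 12322 genes = 0.559) and a Spearman rho of 0.829 (exact permutation p = 0.0583). The relation rested on double mutants 4 and 6, at 5.82 and 8.08 FPKM in cerebellum and 5.77 and 7.92 in cortex, since r was -0.082 without the 2 libraries farthest from the median. The median r over all genes was 0.249, and no gene passed the adjusted threshold, with 7.54% at an unadjusted p below 0.05. For Flt1 the ratio ran from 0.806 to 1.05 in double mutants and from 0.636 to 0.829 in controls.

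**Figure D3:**
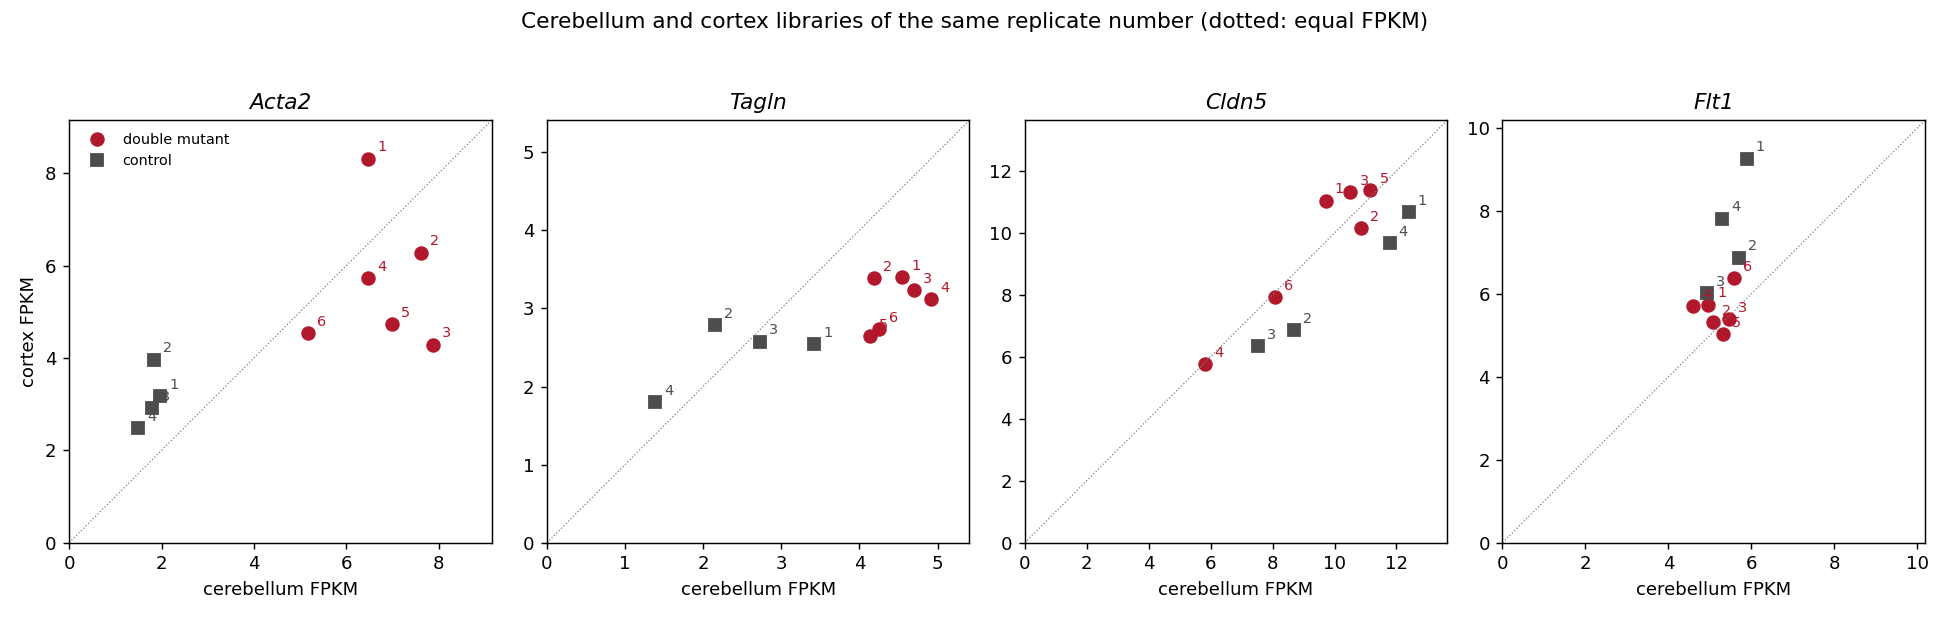
FPKM in cerebellum (x axes) against FPKM in cortex (y axes) for libraries of the same replicate number, shown beside each point, for Acta2, Tagln, Cldn5 and Flt1, with double mutants as circles, controls as squares and a dotted line of equal values. For Cldn5 all 4 controls lie below the line, at ratios of cerebellum to cortex between 1.16 and 1.27, whereas the double mutants straddle it.

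Further genes of the same cells and pathways were read from lists drawn up by hand, also with earlier results known. Their counts are a description as well. A count near the share of all genes, given beside it, says nothing particular about a list. Of 18 contractile companions of smooth muscle, 14 were tested in cerebellum, and 6 rose and none fell in double mutants, against 22.3% and 10.1% of all genes (median log2 difference 0.18, against 0.06 over all genes). Of the 6, Mustn1 passed the filter only through mutant libraries. Myl9, the regulatory light chain of smooth muscle myosin, averaged 9.81 ± 0.957 FPKM in double mutants and 4.95 ± 0.641 in controls (0.86, adjusted p = 5.81e-06). Cald1, which encodes the actin-binding caldesmon, followed at 10.51 ± 0.7 and 7.09 ± 0.441 FPKM (0.51, adjusted p = 3.84e-05), and Pln, the calcium pump inhibitor phospholamban, at 4.47 ± 0.564 and 3.03 ± 0.175 FPKM (0.43, adjusted p = 0.00137). Of 17 of these companions with a promoter window, Myl9 held 2 of the looser CArG matches and Vcl, the focal adhesion protein vinculin, held 1, and in each gene 1 match had only A or T inside. Of all windows 9.98% held a looser match, 0.822% held 2 or more, and 1.63% held a match with only A or T inside. Any link between matches and differences was not tested.

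In cortex 13 of the contractile companions were tested, with 3 higher and 4 lower, against 24.3% and 14.5% of all genes. Myl9 averaged 7.62 ± 1.21 FPKM in double mutants and 4.92 ± 0.338 in controls (0.53, adjusted p = 0.000981), and Tpm1, a tropomyosin also expressed outside muscle, 50.5 ± 1.56 and 44.1 ± 1.12 FPKM (0.19, adjusted p = 0.00131), a call lost after quantile normalization. Sncg, which encodes the synuclein of sensory neurons and is not a contractile protein, fell to 1.79 ± 0.491 FPKM in double mutants, against 4.75 ± 0.972 in controls (-1.04, adjusted p = 0.000142).

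Of the regulators of smooth muscle 2 of 11 tested in cerebellum were higher and 2 lower, against 22.3% and 10.1% of all genes. Heyl, a Notch effector of mural cells, averaged 0.195 ± 0.0501 FPKM in double mutants and 0.904 ± 0.345 in controls (-0.65, adjusted p = 0.000638), and it passed the filter only through 2 controls (adjusted p without the filter = 0.00058). Mkl2, which encodes a partner of serum response factor, averaged 5.99 ± 0.33 and 7.93 ± 0.952 FPKM (-0.35, adjusted p = 0.00282), while Hey1, another Notch effector, was higher (0.23, adjusted p = 0.0108), a call lost after quantile normalization and after median rescaling. In cortex Mkl1, the other such partner, was higher in double mutants (7.11 ± 0.377 against 5.37 ± 0.542 FPKM, 0.35, adjusted p = 0.000864), and Notch3, the Notch receptor of mural cells, lower (-0.23, adjusted p = 0.0246), which quantile normalization and the Ddx3y covariate each ended.

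Of the pericyte companions 3 of 9 tested in cerebellum were higher and none lower (median 0.17), against 22.3% and 10.1% of all genes, and in cortex 4 of 9 were higher and 1 lower (median 0.13), against 24.3% and 14.5%. Vtn, the secreted vitronectin made by brain pericytes, averaged 35.3 ± 4.08 FPKM in cerebellar double mutants and 21.9 ± 3.88 in controls (0.67, adjusted p = 0.000385), and 20.8 ± 1.66 and 16.8 ± 2.06 FPKM in cortex (0.29, adjusted p = 0.00811, a call lost with the Ddx3y covariate). Atp13a5, a transporter gene of pericytes, and Abcc9, a subunit of their potassium channel, also rose in cerebellum (0.44, adjusted p = 0.00824, and 0.35, adjusted p = 0.0137), and both calls were lost with the Ddx3y covariate.

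Of the endothelial companions 2 of 18 were higher and none lower in cerebellum, against 22.3% and 10.1% of all genes, and 1 of 16 was higher and 6 were lower in cortex, against 24.3% and 14.5%. In cerebellum these were the adhesion molecule Icam2 (1.46 ± 0.0859 FPKM in double mutants and 0.712 ± 0.174 in controls, 0.53, adjusted p = 0.000936) and the sialomucin Cd34 (0.32, adjusted p = 0.00707). No control of Icam2 reached 1 FPKM, so it passed the filter only through mutant libraries (adjusted p without the filter = 0.00131). In cortex Tie1, an endothelial receptor of the angiopoietin system, fell to 0.941 ± 0.182 FPKM in double mutants, against 1.66 ± 0.148 in controls (-0.46, adjusted p = 0.00101). Ptprb, an endothelial tyrosine phosphatase, and Vwf, the von Willebrand factor, were lower as well (-0.28, adjusted p = 0.00212, and -0.50, adjusted p = 0.00352), calls that the Ddx3y covariate ended. In the test of the tissue difference 2 of 16 endothelial companions had a higher difference in cerebellum and none a lower one, against 15.4% and 11.7% of all genes. For the companions of the blood-brain barrier this was 6 of 19 higher and none lower, and for the contractile companions 4 of 12 higher and 1 lower.

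Of the companions of the blood-brain barrier 9 of 20 were higher and none lower in cerebellum, against 22.3% and 10.1% of all genes, and 6 of 19 were higher and 4 lower in cortex, against 24.3% and 14.5%. Car4, a carbonic anhydrase of brain capillaries, averaged 58.4 ± 10.2 FPKM in cerebellar double mutants and 31.5 ± 3.72 in controls (0.86, adjusted p = 0.000478), and the efflux pump gene Abcb1a 8.33 ± 0.409 and 6.16 ± 0.356 (0.38, adjusted p = 0.000458). In cortex Slco1a4, an organic anion transporter, was at 12.9 ± 0.487 FPKM in double mutants and 16.4 ± 0.505 in controls (-0.33, adjusted p = 8.47e-05). Lef1, a transcription factor of Wnt signalling, was at 1.35 ± 0.376 and 3.19 ± 0.272 FPKM (-0.85, adjusted p = 0.000133). Slc7a5 of the same list went the other way and was higher in cortex of double mutants (0.56, adjusted p = 0.000153).

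Of the signals that steer vessel growth 3 of 16 were higher, Cxcr4 among them through mutant libraries alone, and 1 lower in cerebellum, against 22.3% and 10.1% of all genes, and 1 of 14 was higher and 2 lower in cortex, against 24.3% and 14.5%. Angpt1, the angiopoietin that steadies vessels, averaged 4.94 ± 0.8 FPKM in cerebellar double mutants and 2.72 ± 0.302 in controls (0.67, adjusted p = 0.000207). Pdgfb, the ligand of the receptor encoded by Pdgfrb, averaged 1.73 ± 0.206 and 2.98 ± 0.445 FPKM (-0.54, adjusted p = 0.0011), and Pdgfd, a related ligand, was higher (0.42, adjusted p = 0.0122). Among glucose transporters in cerebellum 2 of 6 were higher and 1 lower, against 22.3% and 10.1% of all genes. The insulin-responsive Slc2a4 was at 2.55 ± 0.268 FPKM in double mutants and 1.51 ± 0.206 in controls (0.50, adjusted p = 0.000479), while Slc2a6 was lower (-0.32, adjusted p = 0.0139). In cortex 3 of 6 glucose transporters were higher and 1 lower, against 24.3% and 14.5% of all genes. The neuronal Slc2a3 averaged 20.6 ± 0.778 FPKM in double mutants and 16.5 ± 1.18 in controls (0.30, adjusted p = 0.000461) where Slc2a1 was lower. Of the 3, Slc2a5 passed the filter only through double mutants and adds no support to the count (adjusted p without the filter = 0.000781). The transporter of this list called lower was Slc2a12 (-0.27, adjusted p = 0.0335). Of the hypoxia targets 1 of 14 was higher and 4 were lower in cerebellum, against the same 22.3% and 10.1%. Pgk1, a glycolytic enzyme, was among the lower ones (-0.81, adjusted p = 8.91e-07), and Ndrg1 was the higher one (0.40, adjusted p = 0.00067). In cortex 2 of 13 were higher (Slc2a3 and Ldha) and 1 lower (Pgk1), against 24.3% and 14.5% of all genes.

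**Figure D4:**
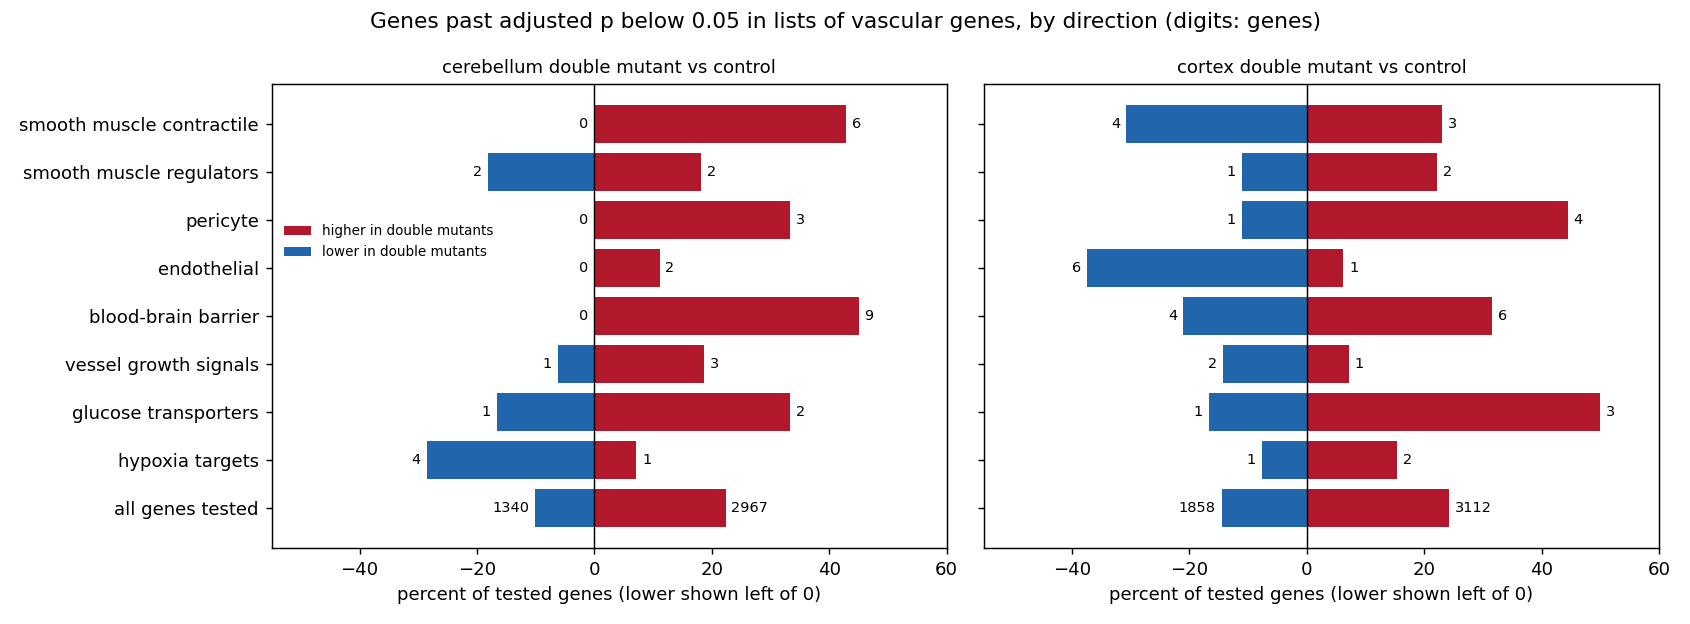
Percent of tested genes (x axis) called higher (red, right of 0) or lower (blue, left of 0) in double mutants against controls, for 8 lists of vascular genes and for all genes (y axis), in cerebellum and cortex, with the number of genes beside each bar. No contractile, pericyte, endothelial or barrier companion was called lower in cerebellum, whereas in cortex 6 endothelial companions were lower and 1 higher.

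Markers of other cells moved beside these results, and their part in them was not tested. The counts stand against 22.3% of all genes called higher and 10.1% lower in cerebellum, and 24.3% and 14.5% in cortex. Genes of perivascular fibroblasts and meninges were higher in 7 of 15 cases in cerebellum. They summed to 512 to 789 FPKM in double mutants, 502 to 577 in Aptx mutants and 552 to 573 in Atm mutants, against 416 to 490 in controls. In cortex the sums were 332 to 494 FPKM in double mutants and 240 to 336 in controls, with 2 of 12 higher and 1 lower. Of the 2, Slc22a6 passed the filter only through double mutants and adds no support to the count (adjusted p without the filter = 0.00525). The sums of cerebellar mutants lay above every control, as did those of the contractile members (11.1 to 14.3 FPKM in double mutants against 3.22 to 5.94 in controls). A sum follows its most abundant genes. Of the fibroblast and meningeal genes 1 of 15 was called higher in Aptx mutants and 1 of 15 in Atm mutants, with none lower. Of all genes 10.4% were higher and 5.16% lower in Aptx mutants, and 6.78% and 3.25% in Atm mutants.

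Blood cell genes, which follow the blood left in the vessels, summed to 581 to 1438 FPKM in cerebellar double mutants and 330 to 1507 in controls, with none of 7 called. In cortex they summed to 374 to 930 FPKM in double mutants and 142 to 551 in controls, with 4 of 6 higher, Hba-a1 at 145 ± 54 and 58.7 ± 34.8 FPKM among them (1.39, adjusted p = 0.00564, a call lost with the Ddx3y covariate). Genes of astrocytes, cells whose end-feet sheathe the vessels, were higher in 4 of 10 cases in cerebellum and 3 of 10 in cortex, where 2 were lower. The water channel gene Aqp4 averaged 123 ± 10.6 FPKM in cerebellar double mutants and 71.0 ± 17.2 in controls (0.81, adjusted p = 0.000401). Genes of pituitary and brain stem summed to 5.85 to 15.1 FPKM in cerebellar double mutants and 27.1 to 161 in controls, without overlap, with 7 of 8 tested lower, 3 of which passed the filter through controls alone, and 1 higher. Choroid plexus genes summed to 192 to 1436 FPKM in cerebellar double mutants and 69.6 to 1000 in controls, with 3 of 10 higher and none lower. Of the 3, F5 passed the filter only through mutant libraries and adds no support to the count (adjusted p without the filter = 0.053). In cortex choroid plexus genes summed to 275 to 497 FPKM in double mutants and 421 to 478 in controls, with 4 of 7 lower and none higher, Clic6 (-0.84, adjusted p = 0.000998) among them.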

How the data were processed

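Stranded total RNA libraries of whole cerebellum and whole cortex were mapped by the authors to mm9 with BWA 0.5.10, and HTSeq, version not given, is named in the submitters' processing notes. The deposited values are FPKM per gene and library, as computed by the authors. No counts were used and depth is unknown. Groups came from the labels. Values were transformed as log2(FPKM + 1), and genes with at least 1 FPKM in at least 2 cerebellum or 4 cortex libraries were tested (13277, 12815 and, in both, 12322). Linear models were fitted with limma 3.58.1 in R 4.3.3 (empirical Bayes with intensity trend, two-sided, Benjamini-Hochberg over all tested genes), with the 14 cerebellum libraries in 1 fit, the 10 cortex libraries in another, and the 20 double-mutant and control libraries of both tissues in a further fit. The script was tested on simulated data. The members and lists were chosen with earlier results of these data known. Named genes were the 10 members, up to 3 genes per list by smallest p in the tissue described, the 5 genes most like each member group, and Atm and Aptx.

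Across tissues, double mutants share a library number in the labels and controls a replicate number. Deviations from group means correlated within every such pair (r from 0.234 to 0.499 in 6 double mutants and from 0.13 to 0.308 in 4 controls), and each library correlated best with its own replicate number, so the numbers were taken to pair the libraries. Within a tissue they did not. Alternatives covered pseudocounts of 0.1 and 0.01, no filter, quantile normalization, median rescaling, no trend, a replicate block, only the 2 groups compared, Ddx3y as a covariate and each library left out. Promoter windows (250 bases before to 50 after the start) were taken from RefSeq, GRCm38.p6, and coordinates of genes from the mm9 annotation.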

Additional observations from a re-analysis of the deposited data

Results flagged for a closer look

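The following values lay far from the rest of their group by Dixon's test, which marked 5 of the 40 groups of members examined, where chance marks about 1 in 20. In cerebellar double mutant 4, Myh11 was at 0.705 FPKM and Pdgfrb at 1.70 FPKM, below the other 5 double mutants. In the same library Cldn5 was at 5.82 FPKM, also the lowest, and Rgs5 at 37.4 FPKM, the highest. In cortex double mutant 1, Myh11 was at 2.35 FPKM, above the other 5. Pecam1 in cerebellar double mutant 3 was at 5.53 FPKM, and the other 5 lay between 4.93 and 5.07. Kdr in cortex control 1 was at 1.80 FPKM, with the other 3 controls between 1.105 and 1.16. The double-mutant effect on Acta2 differed between the tissues, by 0.81 on the log2 scale.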

How the results depend on the processing

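Acta2 kept its direction and call in all 5 comparisons that called it, under every alternative. The number of the 10 genes called fell for Aptx mutants to 3 of 5 without the filter, 3 after median rescaling, 2 with only the 2 groups compared and 2 with a replicate block. In cortex it fell to 3 of 5 without the filter, and with the Ddx3y covariate it was 3, of which 2 were shared with the 5 (Flt1, Slc2a1 and Tagln lost, Myh11 gained), and the tissue difference gave 4 in place of 1 with the replicate block, printed above since these numbers pair the libraries. With each library left out in turn, counts ranged from 5 to 6 in cerebellar double mutants, 1 to 5 in Aptx mutants, 1 to 3 in Atm mutants, 3 to 5 in cortex and 1 to 3 between tissues, and stayed at 0 against the single mutants. Leaving out cortex double mutant 6 and control 4 together, chosen after seeing the data, gave 4 of 5. Within a tissue the libraries share only a number, and that block left 5 of 6 in cerebellum (Kdr lost, adjusted p = 0.168) and 5 in cortex (Slc2a1 lost, Myh11 gained). Over all genes it called 7 in place of 263 against the single mutants, 2947 in place of 4307 for double mutants, 846 in place of 1331 for Atm mutants and 3042 in place of 4970 in cortex. Counts over all genes also fell to 1216 of 2070 for Aptx and 524 of 1331 for Atm mutants with only the 2 groups compared, and to 2904 in cerebellum and 2340 in cortex with Ddx3y.

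Differences that were never called crossed 0. In Aptx mutants Flt1 went to -0.00406 (quantile), -0.0325 (median) and -0.0115 (block), and Slc2a1 to -0.00320 (quantile) and -0.0631 (block). With Ddx3y, Pdgfrb was -0.0367 and Slc2a1 0.0422 in cerebellum, and Cldn5 -0.0681 in cortex. With the block Myh11 was 0.0818 against the single mutants. With single libraries left out, double mutants against controls ranged from -0.133 to 0.108 for Slc2a1 and -0.221 to 0.0121 for Cldn5 in cerebellum, and -0.0801 to 0.00828 for Pdgfrb in cortex. Against the single mutants Myh11 ranged from -0.0968 to 0.0796, Acta2 from -0.00307 to 0.13, Flt1 from -0.091 to 0.00277 and Kdr from -0.149 to 0.00548. In Aptx mutants Flt1 ranged from -0.0672 to 0.12, Pdgfrb from -0.219 to 0.0911 and Slc2a1 from -0.086 to 0.224, and in Atm mutants Pdgfrb from -0.0866 to 0.0103. The causes were not tested. Without counts the precision of low values such as Myh11 and Kdr is unknown, groups of 2 limit the single mutants, and series code and genotype cannot be told apart.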

Other observations

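Acta1, the skeletal actin whose coding sequence is nearly identical to that of Acta2, was picked after its values were seen. It averaged 2.05 ± 0.368 FPKM in cerebellar double mutants, 0.962 ± 0.302 in Aptx mutants and 1.13 ± 0.373 in Atm mutants, against 1.03 ± 0.294 in controls (SD, n = 6, 2, 2 and 4). The log2 difference was 0.59 in double mutants against controls (adjusted p = 0.00257) and 0.58 against the mean of the single mutants (adjusted p = 0.0271, limma). For Acta2 the difference against the single mutants was 0.06 (adjusted p = 0.85). In cortex Acta1 averaged 4.22 ± 0.691 FPKM in double mutants and 2.42 ± 0.323 in controls (0.61, adjusted p = 0.00053). Actb, the cytoplasmic beta actin, was higher in double mutants in cerebellum (0.35, adjusted p = 0.00912), and Actg1, the gamma actin, was lower (-0.33, adjusted p = 0.0153).

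After the group means were subtracted, Ass1, the argininosuccinate synthase, followed the mean of Acta2, Tagln and Myh11 most closely over the 14 cerebellum libraries (r = 0.92), and r was 0.826 over the 10 cortex libraries. Traf3, Gm17345, Adora2b and Sh2d5 came next in cerebellum (r from 0.898 to 0.906) and gave -0.203 to 0.385 in cortex. The closest to the mean of Pdgfrb and Rgs5 were Pfkfb4, D930015E06Rik, Mmp15, Mrps18b and Vipar (r from 0.89 to 0.91 in cerebellum and -0.534 to 0.259 in cortex). For the 5 endothelial genes they were Gtf2h3, Vat1l, Pigh, Tbc1d20 and Fzd6 (r from 0.872 to 0.908 in cerebellum and -0.437 to 0.45 in cortex). The libraries share depth and dissection, and the genes were picked as the highest of all tested. Among the members themselves Myh11 and Pdgfrb ran together most closely in cerebellum (r = 0.849 over 14 libraries, 0.479 over the 10 of cortex), both being low in double mutant 4.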
